A study of Mus musculus with 8 samples.

Results

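CaM kinase II alpha (Camk2a), the CaM kinase II inhibitor Camk2n1 and neurogranin (Nrgn) were examined for m6A-linked editing in mouse cortex cells, aged against young. The members were all entries of these genes in the authors' deposited table, which lists sites called different between the ages. They came to 30 of 2055 listed sites, of which 13 lay in Camk2a, 13 in Camk2n1 and 4 in Nrgn. The aged cells came from cortex of APOBEC1-YTH mice that were 12 to 14 months old when tamoxifen started (20 mg/kg every 24 h for 5 days), with tissue taken 7 days after the final dose. The young cells came from a companion series and entered only through the table. The sources used here do not state the young age, treatment or library kit, the promoter of the transgene, the cells that express it or the number of mice. APOBEC1-YTH joins a cytidine deaminase to the m6A-binding YTH domain, so that a C beside a methylated A is read as U. All 8 libraries of the series were aged, as 4 lanes of each of 2 sublibraries, and the table pools them.

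CaM kinase II is the most abundant calcium/calmodulin-dependent kinase of excitatory synapses. Calcium-loaded calmodulin opens the kinase, autophosphorylation then keeps it active after calcium has fallen, and this switch is required for long-term potentiation in the hippocampus. Camk2a encodes its alpha subunit, and the mRNA is carried into dendrites through elements in its long 3' UTR. Camk2n1 encodes a small protein that binds and inhibits the active kinase. Nrgn encodes a small postsynaptic protein that holds calcium-free calmodulin through an IQ motif and releases it when calcium rises or when protein kinase C phosphorylates it. All 3 are known as neuronal genes of the forebrain.

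Each site has 3 linked measures at each age. The share of methylated cells is the percent of all cells in which the site was called edited, and cells without reads at the site count as unmethylated. The C-to-U within methylated cells is the mean edited fraction over the called cells only. The mean C-to-U was read as taken over all cells, which the column headers do not state. So read, it equals the product of the other measures, and its log2 ratio is the sum of theirs. The table rests on 846 aged and 2623 young cells. It gives no value per library or mouse and no reads, so no value has a replicate error and read depth is unknown. Fractions within methylated cells as low as 0.648%, found in aged cells, could therefore not be checked against the reads behind them. Shares carry exact Clopper-Pearson 95% intervals that cover counting error over cells only. In the table fewer cells of a type, less RNA per cell and fewer edited molecules cannot be told apart. No listed site had an absolute log2 ratio of the mean below 0.58 or fewer than 25 methylated cells over both ages, so sites that changed little are not seen.

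The sites that carry the findings are shown as RNA-strand sequence from GENCODE M21 transcripts (GRCm38, the build mm10), 5' to 3' and written with T, with each edited C and the base before it in capitals. The first lines are 3' UTR sites of Camk2n1, chosen to show the clustered sites, the site with the highest young share, a site that does not follow A and the site with 0 methylated aged cells. The last lines are all sites of Nrgn. Positions count from the first base of the 3' UTR or of the coding sequence.
Camk2n1 3' UTR 275 and 281 (chr4:138457053-138457079, plus strand): ggctcctctACaaaaACaaaagttaaa
Camk2n1 3' UTR 757 and 760 (chr4:138457535-138457558, plus strand): tttcgagagACaACtgaaaagctt
Camk2n1 3' UTR 860 and 864 (chr4:138457638-138457662, plus strand): aaaacaaagACaaACttgcttgagc
Camk2n1 3' UTR 951 (chr4:138457729-138457749, plus strand): tatccattcTCtttaatggac
Camk2n1 3' UTR 1022 (chr4:138457800-138457820, plus strand): atatcttgaACcgccaaaagg
Nrgn coding 42 (chr9:37546138-37546158, minus strand): agccagacgACgatattcttg
Nrgn coding 81 (chr9:37546099-37546119, minus strand): ccggagccaACgccgctgcag
Nrgn 3' UTR 449 and 450 (chr9:37544895-37544916, minus strand): aaaaaagcaACCaccaagtcct

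The first question was how editing at these genes differed between the ages. Mean C-to-U was lower in aged cells at 25 of the 30 sites, against 58.5% of all listed sites. In 3' UTRs it was lower at 17 of 20 sites, against 526 of all 693 listed. At coding sites it was lower at 8 of 10, against 334 of all 796 listed. The share and the fraction within methylated cells mostly moved in opposite directions, and which of them was lower depended on where in the transcript the site lay. At all 10 coding sites the share was higher in aged cells and the fraction within methylated cells lower, which by the fraction alone held at 64.4% of all listed coding sites. No listed site had under 25 methylated cells, so a site with few young cells could enter only with a higher aged share. Such were Camk2a coding positions 754, 963, 1020 and 1061, its 3' UTR position 1297 and Nrgn coding position 42, with 8 to 18 young cells. Their direction by share was thus fixed in advance. At 13 of the 19 sites in 3' UTRs that had a fraction at both ages, the share was lower and the fraction within methylated cells higher. Over all listed sites the first pattern held at 61.1% of coding sites and the second at 21.4% of 3' UTR sites. Both patterns thus occur throughout the table, and no test of a difference between these genes and others was made.

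**Figure D1:**
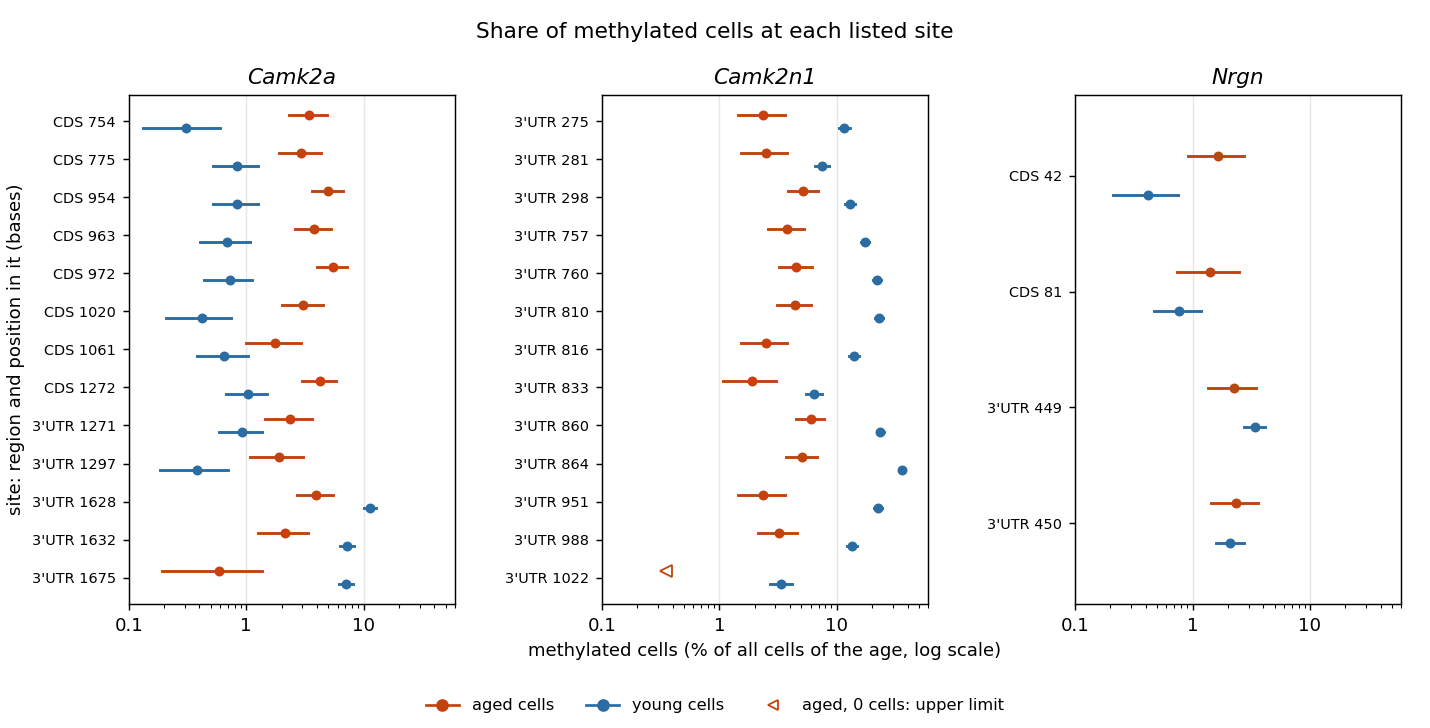
Share of methylated cells (percent of all cells of an age, log scale) at each listed site of the 3 genes, ordered 5' to 3' from top to bottom; points are shares, bars are 95% Clopper-Pearson intervals, and the open triangle is not such an interval but the limit of 3 counts, 0.355%, where 0 of 846 aged cells were methylated. Coding sites lie higher in aged cells, while all 13 Camk2n1 sites and the last 3 Camk2a sites lie lower in aged cells.

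Camk2a, the kinase subunit, lies on chromosome 18 from 60925618 to 60988152 on the plus strand and was placed on transcript Camk2a-203, with 18 exons and a 3' UTR of 3372 bases. Its 13 sites fell into 2 stretches that moved in opposite directions. The 10 sites nearer the 5' end, 8 of them coding and 2 in the 3' UTR, were methylated in more of the aged cells. The last 3 sites, at 3' UTR positions 1628 to 1675, were methylated in fewer of them. Shares at the first stretch were 1.77% to 5.44% in aged cells, against 0.305% to 1.03% in young cells. Intervals lay apart at 9 of these 10 sites, among them 7 of the 8 coding sites, against 63.8% of all listed coding sites that were higher in this way. The floor of 25 methylated cells by itself set them apart at coding positions 754 and 1020 and at 3' UTR position 1297. These sites had 8, 11 and 10 methylated young cells. At the last 3 sites shares were 0.591% to 3.90% in aged cells, against 7.13% to 11.4% in young cells. The fraction within methylated cells ran the other way in both stretches, with lower values in aged cells at the first 10 sites and higher values at the last 3.

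Exon 13 of Camk2a held 3 sites 9 bases apart, at coding positions 954, 963 and 972. The edited C follows an A at positions 963 and 972 but not at position 954. By share, the direction at position 963 was fixed in advance by the floor of 25 methylated cells. Position 972 had the largest aged share of the gene, 5.44% (4.01 to 7.19, 46 cells) in aged cells, against 0.724% (0.437 to 1.13, 19 cells) in young cells. Within those cells C-to-U was 1.12% in aged cells, against 14.8% in young cells. Position 954 had 4.96% (3.60 to 6.65) of cells methylated in aged cells, against 0.839% (0.526 to 1.27) in young cells, and position 963 had 3.78% (2.60 to 5.30) in aged cells, against 0.686% (0.407 to 1.08) in young cells. All 3 neighbours had the same form: more aged cells carried a call, and the fraction within those cells was low. At positions 954 and 963 that fraction was 0.812% and 1.09% in aged cells, against 13.0% and 16.0% in young cells. Their means were 0.0403%, 0.0413% and 0.0611% in aged cells, against 0.109%, 0.110% and 0.107% in young cells. The authors' deposited table gave adjusted p-values of 1.75e-11 at position 954, 4.11e-08 at position 963 and 7.59e-14 at position 972.

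The widest gap of the fraction within methylated cells was at coding position 775 in exon 10. It was 1.39% in 25 aged cells, against 51.6% in 22 young cells. The share itself was 2.96% (1.92 to 4.33) in aged cells, against 0.839% (0.526 to 1.27) in young cells, and the mean had a log2 ratio of -3.39 (authors' deposited table, adjusted p of 0.0101). Position 1272 in exon 17 was similar, with 0.648% in 36 aged cells, against 22.6% in 27 young cells, and the authors' deposited table lists an adjusted p of 3.92e-15. The reads behind such low aged fractions are not given, so neither their depth nor their scale could be checked. The coding sites with a higher mean in aged cells were positions 754 and 1020. The edited C follows an A at position 1020 but not at position 754. At position 754 the mean was 0.152% in aged cells, against 0.0508% in young cells, and at position 1020 it was 0.263% in aged cells, against 0.0524% in young cells. Their shares were 3.43% (2.31 to 4.89) and 3.07% (2.02 to 4.47) in aged cells, against 0.305% (0.132 to 0.600) and 0.419% (0.210 to 0.749) in young cells. The young methylated cells numbered 8 and 11, so the young fractions of 16.7% and 12.5% rest on few cells; the aged fractions were 4.44% and 8.57%. Position 1061 in exon 15 was the coding site whose share intervals overlapped, with 1.77% (0.996 to 2.91, 15 cells) in aged cells, against 0.648% (0.378 to 1.04, 17 cells) in young cells.

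Among the listed sites of the Camk2a 3' UTR, the direction by share changed between position 1297 and position 1628. The higher aged share at position 1297, with 10 methylated young cells, was fixed in advance by the floor of 25 methylated cells. Position 1271, with 24 methylated young cells, was not so fixed. At position 1271 the share was 2.36% (1.45 to 3.63) in aged cells, against 0.915% (0.587 to 1.36) in young cells. At position 1297 it was 1.89% (1.08 to 3.05) in aged cells, against 0.381% (0.183 to 0.700) in young cells, and the fractions within them, 7.10% in aged cells and 7.26% in young cells, were close. At neither site did the edited C follow an A. Position 1628, the site of the gene with the most methylated young cells, had 3.90% (2.70 to 5.43, 33 cells) in aged cells, against 11.4% (10.2 to 12.6, 298 cells) in young cells. Its C-to-U in the methylated cells was 32.6% in aged cells, against 18.9% in young cells, and the mean was 1.27% in aged cells, against 2.15% in young cells. Position 1632, 4 bases on, had 2.13% (1.27 to 3.34) in aged cells, against 7.24% (6.28 to 8.30) in young cells, with fractions within of 32.3% in aged cells and 14.7% in young cells. At position 1675 the share was 0.591% (0.192 to 1.37, 5 cells) in aged cells, against 7.13% (6.17 to 8.18, 187 cells) in young cells, and the mean was 0.236% in aged cells, against 2.04% in young cells. These last sites have the larger young shares of the gene, and the intervals of the ages did not overlap at any of the 3.

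The last 3 Camk2a sites lie 1, 5 and 48 bases past the annotated end of a shorter transcript, Camk2a-201. They are thus exonic in Camk2a-203 and outside Camk2a-201, whereas positions 1271 and 1297 of the 3' UTR lie upstream of that end. Around positions 1628 and 1632 the 21-base windows were rich in A, at 66.7% and 81.0%, against a median of 47.6% over all listed 3' UTR sites. At position 1675 it was 33.3%. The authors' deposited adjusted p-values at the 3 sites, 0.00822, 0.0186 and 0.0164, were larger than those at 6, 8 and 8 of the 8 coding sites. The sources used here do not state the test behind them.

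Camk2n1, the kinase inhibitor, lies on chromosome 4 from 138454314 to 138460123 on the plus strand. All 13 sites lay in the 3' UTR part of exon 2, and the share of methylated cells was lower in aged cells at every one of them, with intervals that did not overlap. Over all listed sites, shares with separate intervals were lower in aged cells at 15.1%, and over listed 3' UTR sites at 27.4%. Aged shares ran from 0% to 6.03% with a median of 3.19%, and young shares from 3.35% to 35.8% with a median of 14.1%. Within methylated cells, aged C-to-U exceeded young at 10 of the 12 sites that had a value, with medians of 20.6% in aged cells and 11.6% in young cells. Higher fractions in aged methylated cells were found at 36.8% of all listed 3' UTR sites. The mean over all cells was lower at 12 of 13 sites, against 526 of all 693 listed 3' UTR sites. It averaged 0.697% over the Camk2n1 sites in aged cells, against 2.13% in young cells.

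Position 864 of the 3' UTR, in the third sequence line above, was the most widely methylated site of the gene at the young age. Its share was 5.08% (3.70 to 6.79, 43 cells) in aged cells, against 35.8% (33.9 to 37.6, 938 cells) in young cells. Ranked by the drop in share in percentage points, it was number 11 of the 2055 listed sites. Of the 100 largest drops 7 were Camk2n1 sites and 57 were 3' UTR sites, while Camk2n1 had 13 of the 2055 listed sites. A drop in points cannot exceed the young share, so this ranking favours sites with a high young share. C-to-U in the methylated cells was 31.7% in aged cells, against 16.8% in young cells. The log2 ratio of the mean, -1.90, is therefore the sum of -2.81 for the share and 0.91 for the fraction within. Position 860, 4 bases before it on the same stretch, had 6.03% (4.52 to 7.85) methylated in aged cells, against 23.5% (21.9 to 25.2) in young cells. Its fractions within those cells were 21.8% in aged cells, against 10.5% in young cells.

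The remaining central sites, at positions 757 to 988, kept this form with different sizes. At position 757 the share was 3.78% in aged cells, against 17.5% in young cells. Position 760 had 4.49% in aged cells, against 21.9% in young cells. Position 810 had 4.37% in aged cells, against 22.9% in young cells, and the fraction within methylated cells was 28.4% in aged cells, against 11.6% in young cells. Position 816 had 2.48% in aged cells, against 14.1% in young cells, with fractions within of 14.9% in aged cells and 10.0% in young cells. The exceptions were positions 833 and 988, at which the fraction within methylated cells was also lower in aged cells. It was 8.55% in aged cells, against 9.52% in young cells, at position 833, where the share was 1.89% in aged cells, against 6.40% in young cells. It was 11.5% in aged cells, against 19.4% in young cells, at position 988, where the share was 3.19% in aged cells, against 13.5% in young cells. At position 951 the edited C follows a T, outside the usual A-C context of the assay, and its share was nonetheless 2.36% (1.45 to 3.63, 20 cells) in aged cells, against 22.4% (20.8 to 24.1, 588 cells) in young cells. The mean there was 0.668% in aged cells, against 3.08% in young cells.

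The group nearest the stop codon held positions 275, 281 and 298. Position 281 was the only Camk2n1 site with a higher mean in aged cells, 0.666% in aged cells, against 0.411% in young cells, and the authors' deposited table lists an adjusted p of 0.00596. Its share was lower like the others, 2.48% (1.54 to 3.77) in aged cells, against 7.47% (6.49 to 8.55) in young cells, and the fraction within methylated cells was 26.8% in aged cells, against 5.50% in young cells. Position 275, only 6 bases away, had a share of 2.36% (1.45 to 3.63) in aged cells, against 11.6% (10.4 to 12.9) in young cells, and a mean of 0.460% in aged cells, against 0.898% in young cells. The pair thus shared the direction of the share and of the fraction within, and differed in the direction of the mean. Position 298 had the largest aged share of the 3, 5.20% (3.80 to 6.92) in aged cells, against 12.9% (11.6 to 14.2) in young cells.

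At the 3'-most site, position 1022, 0 of 846 aged cells were methylated, which allows a share of up to 0.355% by the limit of 3 counts and up to 0.435% by the Clopper-Pearson interval, against 88 cells or 3.35% (2.70 to 4.12) in young cells. Within those young cells C-to-U was 43.4%, the highest young fraction of the gene. The authors' deposited table lists an adjusted p of 0.0495, near the listing threshold of 0.05. No site was listed in the 2313 bases between position 1022 and the annotated end of the transcript, nor in the coding sequence.

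**Figure D2:**
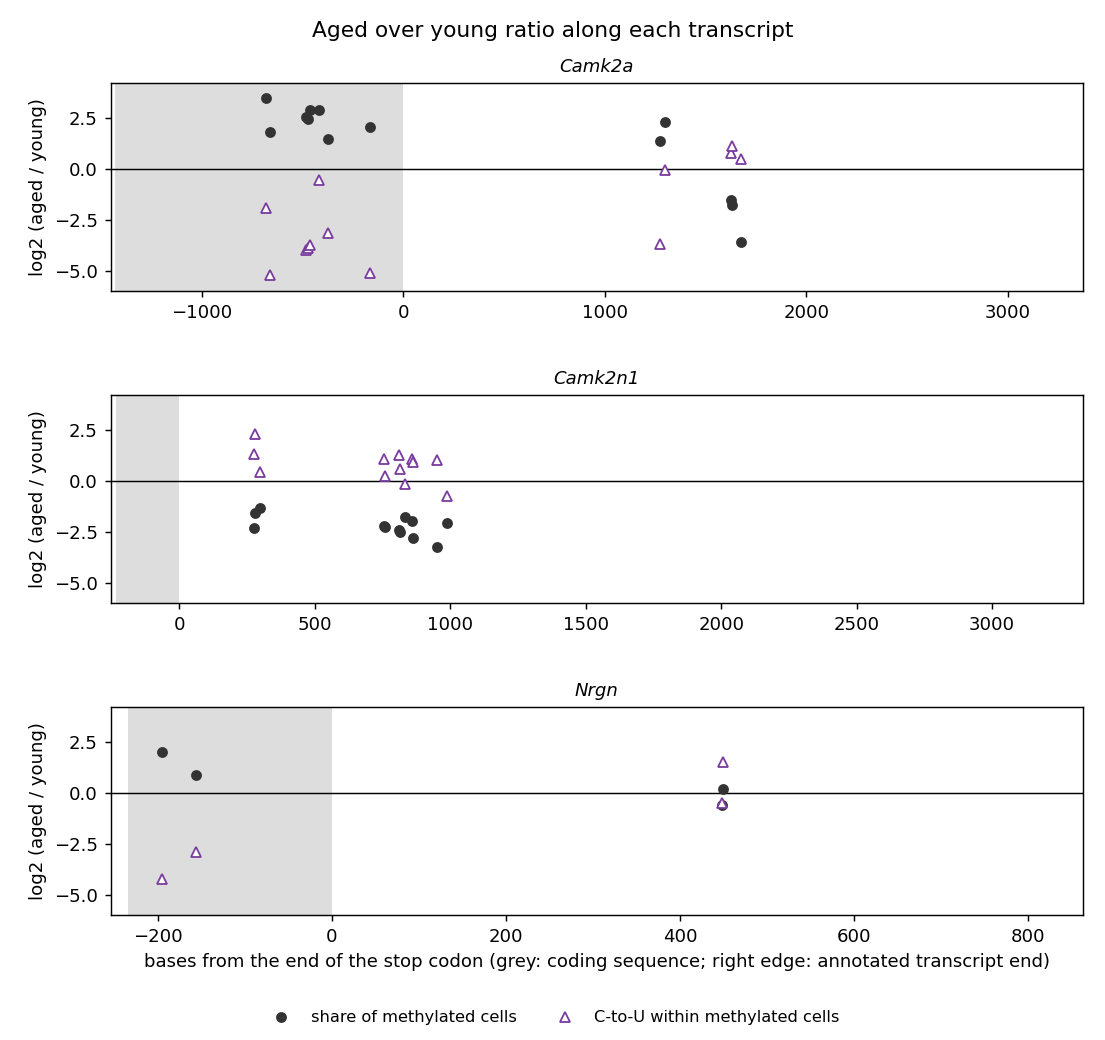
Log2 ratio, aged over young, of the share of methylated cells (filled points) and of C-to-U within methylated cells (open triangles) against the distance in bases from the stop codon, for Camk2a (top), Camk2n1 (middle) and Nrgn (bottom). Share ratios are above 0 in the coding sequence and at Camk2a 3' UTR positions 1271 and 1297, and below 0 at the later Camk2a sites and at all Camk2n1 sites; Camk2n1 position 1022 is not drawn because its aged share is 0.

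Nrgn, the calmodulin-binding protein, lies on chromosome 9 from 37544492 to 37552904 on the minus strand. It had 4 listed sites, 2 in the coding part of exon 2 and 2 at adjacent bases of the 3' UTR in exon 4. The coding sites had few cells and had the same directions as the coding sites of Camk2a. The floor of 25 methylated cells fixed in advance both the higher aged share and the separate intervals at position 42. At position 42 the share was 1.65% (0.908 to 2.76, 14 cells) in aged cells, against 0.419% (0.210 to 0.749, 11 cells) in young cells. C-to-U within those cells was 0.841% in aged cells, against 15.8% in young cells. At position 81 the share was 1.42% (0.735 to 2.46, 12 cells) in aged cells, against 0.762% (0.466 to 1.18, 20 cells) in young cells, with overlapping intervals. The fraction within was 1.23% in aged cells, against 9.31% in young cells.

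The adjacent 3' UTR bases of Nrgn, in the last sequence line above, gave opposite directions. Position 449 is the C that follows an A, and position 450 is the next C. At position 449 the mean was 0.305% in aged cells, against 0.653% in young cells. At position 450 the mean was 1.32% in aged cells, against 0.408% in young cells. Shares differed little at both, with overlapping intervals: 2.25% (1.36 to 3.49) in aged cells, against 3.39% (2.73 to 4.16) in young cells at position 449, and 2.36% (1.45 to 3.63) in aged cells, against 2.10% (1.58 to 2.72) in young cells at position 450. The fractions within methylated cells separated the bases. They were 13.6% in 19 aged cells, against 19.3% in 89 young cells, at position 449, and 55.6% in 20 aged cells, against 19.5% in 55 young cells, at position 450. The authors' deposited adjusted p-values were 0.0455 at position 449 and 1.56e-05 at position 450.

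**Figure D3:**
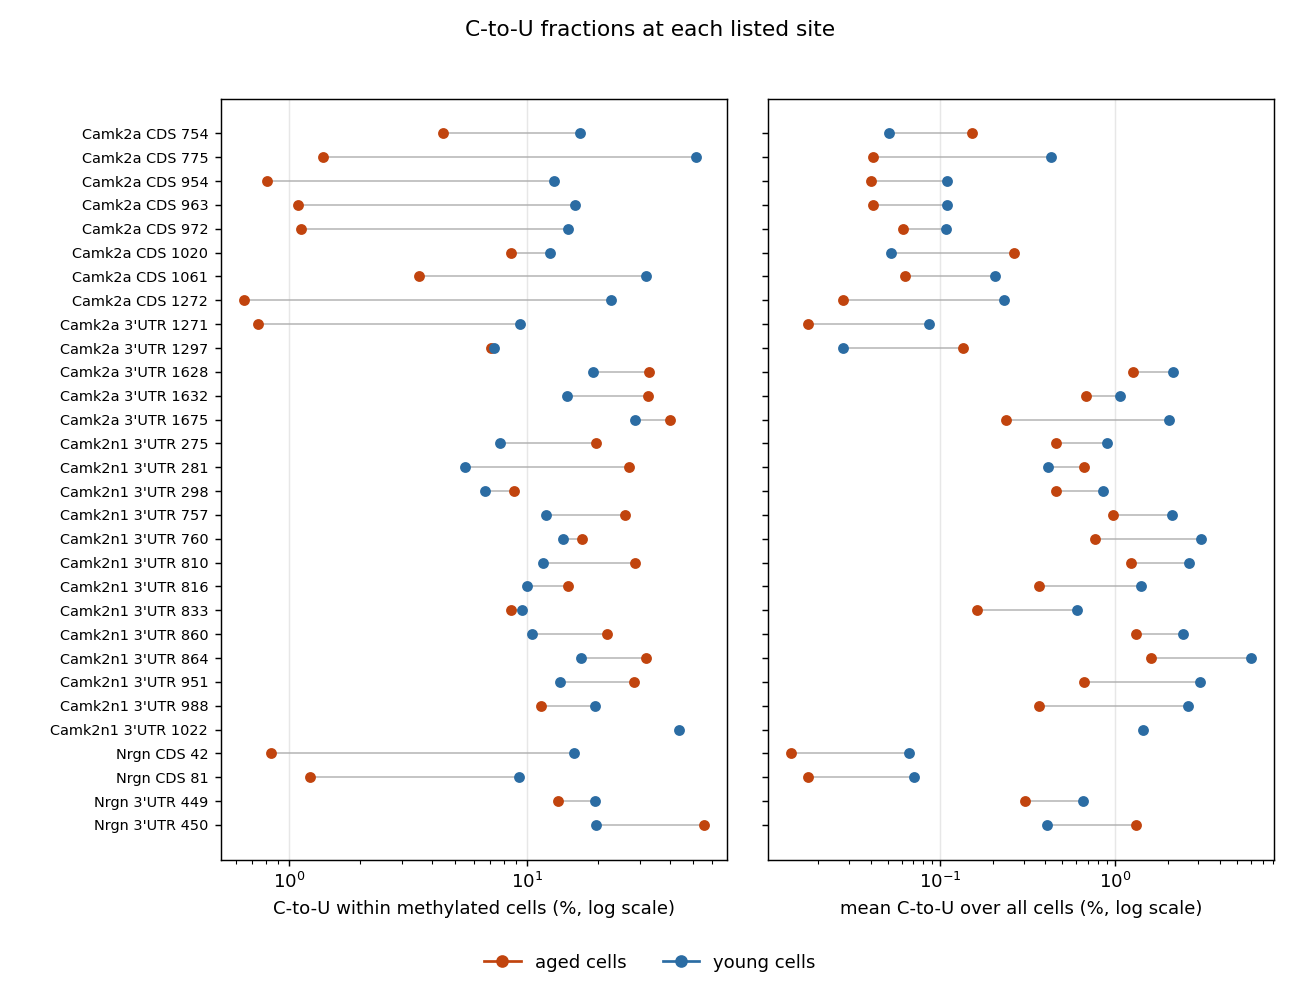
C-to-U within methylated cells (left, percent) and mean C-to-U over all cells (right, percent), both on log scales, for the 30 sites in 5' to 3' order within each gene; red points are aged and blue points young cells, joined by a grey line. Coding sites have aged fractions within methylated cells between 0.648% and 8.57%, all below the young fractions, whereas 10 of the 12 Camk2n1 sites with both values lie higher in aged cells.

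Side by side, the 3 genes did not move as a block by share. Camk2n1 was lower in aged cells at 13 of 13 sites, Camk2a at 3 of 13 and Nrgn at 1 of 4, against 24.6% of all listed sites. By region, 10 of 10 coding sites were higher by share, against 94.7% of all listed coding sites, while 17 of the 20 3' UTR sites were lower, against 50.8% of all listed 3' UTR sites. The count at coding sites was in part fixed by the floor of 25 methylated cells. The median share at the 10 coding sites was 3.25% in aged cells, against 0.705% in young cells. At the 20 3' UTR sites it was 2.42% in aged cells, against 11.5% in young cells, while over all listed 3' UTR sites it was 1.65% in aged cells, against 1.52% in young cells. The aged medians of the regions were thus close, and the young medians were far apart. The median fraction within methylated cells was 1.18% in aged cells, against 15.9% in young cells, at the coding sites, and 21.8% in aged cells, against 12.9% in young cells, at the 3' UTR sites.

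**Figure D4:**
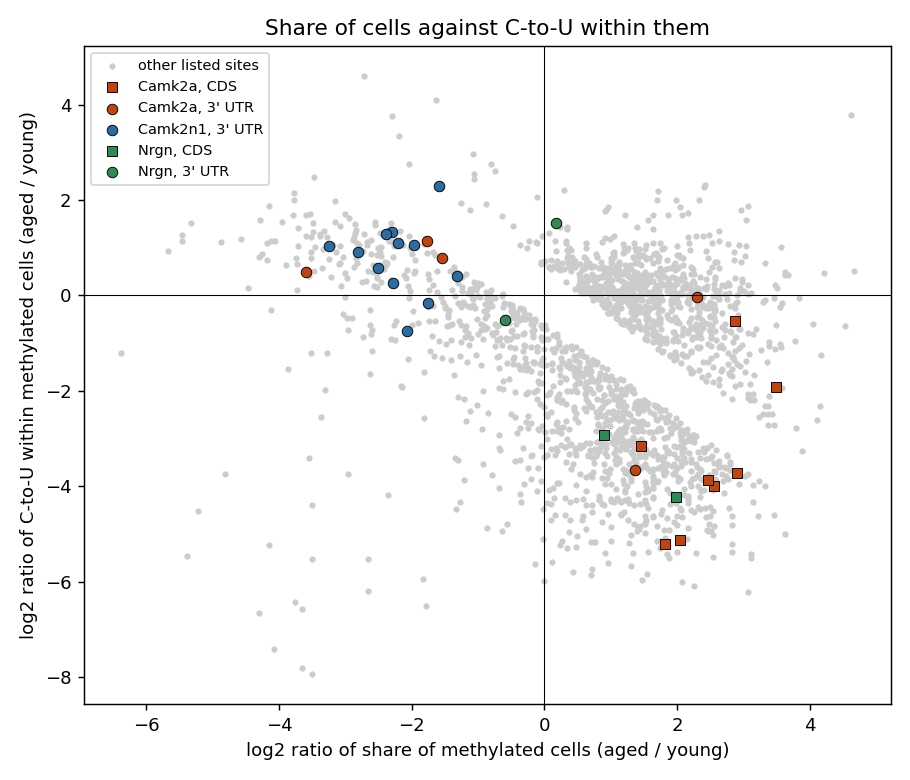
Log2 ratio of the share of methylated cells (x axis) against log2 ratio of C-to-U within methylated cells (y axis), aged over young, with 1 point per listed site; squares are coding and circles 3' UTR sites of the 3 genes, grey points all other listed sites with methylated cells at both ages. The last 3 Camk2a sites and 10 of the 12 Camk2n1 sites drawn lie at the upper left, Camk2n1 positions 833 and 988 at the lower left, and the 10 coding sites at the lower right; the empty diagonal band holds the sites that the table leaves out because their mean changed little.

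The sequence around the sites was described next, since the deaminase edits a C next to the methylated A. The edited C followed an A at 23 of the 30 sites, or 76.7%, against 76.9% of all 1955 listed sites with a C on the gene's strand and a full window. At 22 of them the A followed a further A or G (the RAC motif). The base after the edited C differed by region. It was G at 7 of the 10 coding sites and at 0 of the 20 3' UTR sites. Over all listed sites it was G at 49.4% of coding sites and at 12.4% of 3' UTR sites, so a G after the edited C was common among coding sites of the whole table. All 7 member sites with this G, both Nrgn coding sites among them, had a higher share and a lower fraction within methylated cells in aged cells, against 59.3% of all listed coding sites with the G. The 3 coding members without it, Camk2a positions 754, 963 and 1061, had the same directions, against 62.9% of all listed coding sites without the G. By share, however, the floor of 25 methylated cells fixed the direction in advance at all 3 of these. It also did so at Camk2a position 1020 and Nrgn position 42 among the 7 with the G. The members therefore cannot show whether the direction by share depends on the G. Over all listed coding sites the median log2 ratio of the share was 1.63 with the G and 1.63 without it.

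Neighbouring sites can lie on the same reads and are not independent. Of the 30 sites, 15 had another member site within 10 bases, which made 8 adjacent pairs. The members of a pair had the same direction by share in 7 pairs, by fraction within methylated cells in 7 and by mean in 6. The exceptions were the adjacent Nrgn bases by all 3 measures and Camk2n1 positions 275 and 281 by mean. No other annotated gene overlapped any of the 30 sites, and the 41 bases around each were found in the transcripts of no other gene.

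The genes most like each member were taken from the 70 genes with at least 5 listed sites, by distance in the plane of the median log2 ratios of share and of fraction within. These are 2 measures over the same pooled ages, so likeness is a description. Camk2n1, with medians of -2.29 and 0.98, was nearest to Snap25 (-2.34 and 0.94 over 27 sites), Gria2 (-2.40 and 0.64 over 25 sites) and Ywhaz (-2.86 and 1.03 over 7 sites). Snap25 is a vesicle fusion protein, Gria2 an AMPA receptor subunit and Ywhaz a 14-3-3 adaptor. Camk2a, with medians of 2.05 and -3.16, was nearest to Kif1a, an axonal kinesin (2.10 and -3.04 over 15 sites), Hnrnpu, a nuclear RNA-binding protein (2.14 and -3.35 over 7 sites), and Ntm, a neuronal adhesion molecule (1.77 and -3.22 over 5 sites). The Camk2a medians pool its 8 coding and 5 3' UTR sites, and none of the genes nearest to it had a listed 3' UTR site. Its last 3 sites, which moved the other way, are thus not reflected in this likeness. Nrgn, with medians of 0.53 and -1.71 over 4 sites, was near Xist, the X-inactivation RNA (0.73 and -1.78 over 7 sites), and Basp1, a growth cone protein (0.78 and -1.41 over 5 sites). By median share ratio Camk2n1 ranked 11 from the lowest of the 70 genes, and Camk2a ranked 59.

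Of 44 other genes of calmodulin and CaM kinase signalling, 19 had listed sites, with 88 sites in all. Mean C-to-U was lower in aged cells at 71 of the 88, against 58.5% of all listed sites, and the share was lower at 40, against 24.6%. The mean was lower at 50 of 52 3' UTR sites, against 526 of all 693 listed, and at 18 of 29 coding sites, against 334 of all 796 listed. By region, the share was higher in aged cells at 27 of 29 coding sites, against 94.7% of all listed coding sites, and lower at 36 of 52 3' UTR sites, against 50.8% of all listed 3' UTR sites. Of these 36 sites 15 lay in Ppp3ca, and without that gene the share was lower at 21 of 37 3' UTR sites, a count made after its values were seen. Ppp3ca, a calcineurin catalytic subunit, had a lower share at 15 of 16 sites, with a median of 0.887% in aged cells, against 11.1% in young cells. Of genes that encode calmodulin, the share was lower in aged cells at 1 of 8 Calm2 sites and 4 of 7 Calm3 sites. Among NMDA receptor subunits, through which calcium reaches the kinase, it was lower at 2 of 11 Grin2b sites and 3 of 5 Grin1 sites.

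The other kinase subunits had few sites, and they are named here after their values were seen. Camk2b, the beta subunit, had 4 sites, all in the 3' UTR. The share was lower in aged cells at 3 of them, with a median of 0.887% in aged cells, against 5.18% in young cells, and the fraction within methylated cells was higher at all 4. Camk2d, the delta subunit, had 2 sites, both in the 3' UTR, with a median share of 3.72% in aged cells, against 3.39% in young cells, and the fraction within was lower at both.

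The table holds no expression values, so the tissue label could be set only against which marker genes have listed sites. Of 4 neuronal markers all 4 were listed, with 200 sites, of which 22 had a lower share in aged cells: 16 of 27 in Snap25, 5 of 24 in Syt1, 0 of 5 in Rbfox3 and 1 of 144 in Meg3. Of the astrocyte markers 1 of 4 was listed, Slc1a2, with 10 sites and a median share of 2.48% in aged cells, against 0.991% in young cells. No microglial (0 of 3) or endothelial (0 of 2) marker was listed. The series' design text describes a NeuN sort, which would select neurons, while the sample protocols record no sort. The part of cell composition in the values above was not tested.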

How the data were processed

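The 8 aged libraries were made, per the labels' protocols, from dissociated, fixed cortex cells with Parse split-pool barcoding of polyA RNA; the series' design text instead describes nuclei sorted for NeuN, a neuronal marker, and total RNA. The submitters' processing notes name mm10 and STAR 2.7.5, and the design text the Bullseye pipeline. The sources used here do not state filters, handling of molecular identifiers or the authors' test.

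The authors' deposited table gives, per the file headers, a percent of cells methylated, a mean C-to-U fraction, a count of methylated cells, a p-value with its adjusted form, and a log2 ratio. The headers do not state the cells over which the mean was taken, and it was read here as over all cells. At 2055 sites the percentages give 846 aged and 2623 young cells. The deposited log2 ratio is young over aged; its sign was turned here. Fractions are printed as percent, and the fraction within methylated cells is the mean divided by the share. A further 3 columns were not used. Adjusted p-values are the authors'; no test was added, since the table pools the cells of each age.

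Deposited positions were read as counted from 0 (1 was added) and placed on GENCODE M21 transcripts by gene name, which placed 2037 sites in an exon. Each site took the highest-ranked transcript (APPRIS principal with CCDS first) with an exon there. All 30 member sites had C on the gene's strand. Intervals used scipy 1.17.1 in Python 3.11.15 and were tested on simulated cells. The members, the signalling and marker lists and the alternatives were chosen with earlier results of these data known. Named were the members, the 3 genes nearest to each by median ratios, and the 6 signalling genes with most sites; others are marked where named. Some genes that these rules or lists hold are not reported here.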

Additional observations from a re-analysis of the deposited data

How the results depend on the processing

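Of the 30 sites 83.3% were lower in aged cells by mean C-to-U. This was 76.5% to 91.3% under the 11 restrictions of the sites, and 56.7% with the direction of the share and 51.7% with the direction of the fraction within methylated cells in its place. By share 56.7% were lower. The value was 85.0% for 3' UTR sites, 0% for coding sites, 82.4% without Camk2a and 23.5% without Camk2n1, and 47.8% to 65.2% otherwise. By fraction within methylated cells 51.7% were lower, with 26.3% for 3' UTR sites, 100% for coding sites, 31.2% without Camk2a and 76.5% without Camk2n1, and 45.5% to 63.6% otherwise. The values for coding sites and without each gene were added after seeing the data. Counts over all 3 genes by share or by fraction within thus depend on which regions and genes enter. The stricter settings were an adjusted p under 0.01, an absolute log2 ratio of at least 1, at least 10 methylated cells in each age, C after A, C in RAC, and 1 site per 10 bases. No paired analysis was possible because the table pools all libraries of an age, and for the same reason no library could be left out. The coding sites rest on 12 to 46 aged and 8 to 27 young methylated cells each, and the 3' UTR sites on 0 to 51 aged and 10 to 938 young.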
